A study of Mus musculus with 24 samples.

Results

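The genes described here make complex sphingolipids from ceramide or take them apart in the lysosome, in the livers of mice with and without the liver X receptors (LXR) and with and without fumonisin B1 (FB1). They were chosen by name: every non-control probe that carried the symbol Ugcg, Sgms1, Sgms2, Cerk, Galc, Hexa, Glb1, St3gal5 or Psap was taken. These 9 genes had 22 of the 56605 non-control probes, and 19 of the 22 were bright enough to test. Of the 9 genes, 8 were among the 22088 genes tested, and Galc was not.

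Ceramide is the branch point of sphingolipid metabolism. The Golgi turns it into sphingomyelin, glucosylceramide and, through glucosylceramide, gangliosides, while ceramide kinase phosphorylates it. Lysosomal hydrolases remove the sugars again with the help of small activator proteins called saposins, and inherited loss of these hydrolases causes storage diseases such as Tay-Sachs, Krabbe and GM1 gangliosidosis. FB1 is a fungal toxin that blocks the ceramide synthases, which make the ceramide that these enzymes work on, and LXRα and LXRβ are nuclear receptors for oxysterols encoded by Nr1h3 and Nr1h2.

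Liver RNA of 24 female mice on a sv129/C57 background, aged 8 weeks, was hybridised to 1-colour Agilent arrays, 1 array per mouse. There were 4 groups of 6 arrays. The KO FB1 group lacked LXRα and LXRβ and was given FB1 at 10 mg per kg body weight a day for 1 month, and the KO control group lacked both receptors and was given water. The WT FB1 group had both receptors and received the same FB1 regime, and the WT control group had both receptors and received water. The labels name no tissue or driver for the deletions and give no litter or cage. Values are log2 of the array signal minus the 75th percentile of the same array, so 0 is the level of a spot at that percentile, and the level of 1 probe cannot be set against that of another.

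The arrays were alike in quality. The 75th percentile of the signal lay between 489.9 and 684.8, between 58.7% and 64.5% of spots were well above background, 0 spots were saturated, and the correlation over genes between any 2 arrays within a group was 0.984 to 0.994. The brighter Nr1h3 probe gave -5.12 to -2.56 in KO FB1 livers and -5.13 to -3.98 in KO control livers, against 4.71 to 4.95 in WT FB1 livers and 4.76 to 5.06 in WT control livers. The brighter Nr1h2 probe gave 0.31 to 0.80 in KO FB1 and 0.34 to 0.72 in KO control livers, against 4.02 to 4.22 in WT FB1 and 4.07 to 4.34 in WT control livers. All 24 arrays matched their labelled genotype by these probes, although a further tested Nr1h2 probe averaged -2.17 in KO FB1 and -1.95 in KO control livers, close to -2.23 in WT FB1 and -2.15 in WT control livers. The labels do not say which exons were removed. All 9 hepatocyte markers listed were well above background on all 24 arrays.

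FB1 changed 6 of the 8 tested genes in KO livers: Ugcg, Cerk, Hexa and Psap rose, and Sgms2 and St3gal5 fell (limma, Benjamini-Hochberg adjusted p under 0.05 over all tested genes). That is to be read against a large response of the whole liver, since 41.2% of all 22088 genes passed the same test, 16.5% higher and 24.6% lower. In WT livers FB1 changed 0 of the 8 genes by limma, 0 of them also reached an unadjusted p under 0.05, and 2.89% of all genes were called. Loss of the receptors without FB1 changed 1 of the 8 genes, Glb1, which fell, against 15.2% of all genes (7.21% higher, 8.02% lower). With FB1 in both genotypes, KO livers had higher Hexa and Psap and lower Sgms2 and Glb1 than WT livers, 4 of 8 genes against 32.8% of all genes (14.5% higher, 18.3% lower). The FB1 effect itself differed between genotypes for 1 of the 8 genes, Sgms2, against 9.30% of all genes (4.46% with a higher effect in KO, 4.84% with a lower effect). The median log2 difference of the 8 genes was 0.27 for FB1 in KO and 0.11 for FB1 in WT, beside medians of -0.08 and -0.03 over all tested genes. For KO against WT it was 0.21 with FB1 and -0.08 without FB1, beside -0.03 and 0.01 over all genes. These comparisons share arrays, so their values are given side by side and were not set against each other.

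**Figure D1:**
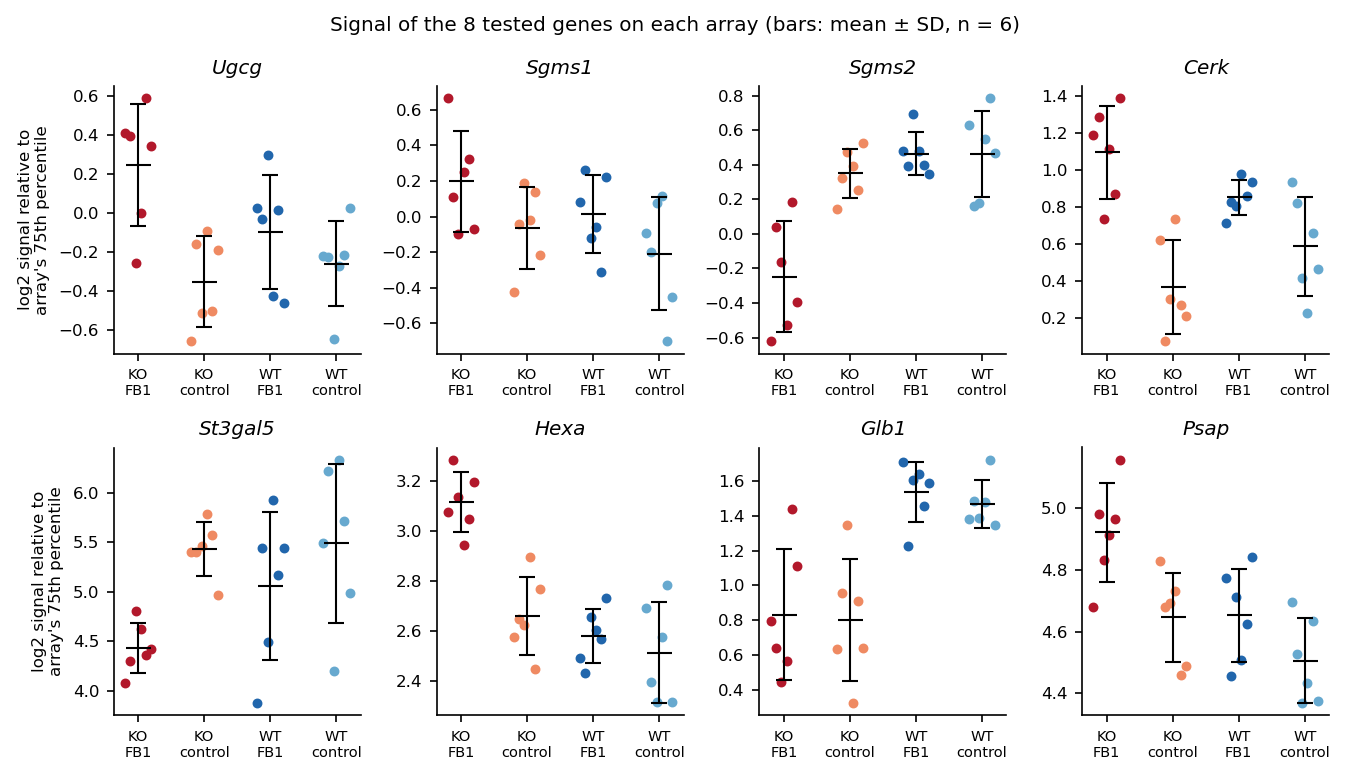
Signal of the 8 tested genes on each of the 24 arrays, as log2 relative to the array's 75th percentile (vertical axes, each with its own range); points are arrays and bars are the mean ± SD of 6 arrays. The KO FB1 arrays of Hexa all lie above the other 3 groups, the KO FB1 arrays of St3gal5 all lie below the KO control arrays, and both KO groups of Glb1 lie mostly below both WT groups.

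Of the genes that act on ceramide in the Golgi, Ugcg encodes glucosylceramide synthase, which makes the parent of most glycosphingolipids. Its brightest probe (mm9 chr4:59235203-59235263) gave a lowest, median and highest value of -0.26, 0.37 and 0.59 in KO FB1 livers, against -0.66, -0.35 and -0.09 in KO control livers. In WT FB1 livers these values were -0.46, -0.01 and 0.30, against -0.65, -0.23 and 0.03 in WT control livers. The KO groups overlapped only through the lowest KO FB1 array, and the WT groups overlapped over most of their range. FB1 raised Ugcg by 0.60 ± 0.15 (SE) in KO livers, 1.52-fold, with an adjusted p of 0.00275. In WT livers the difference was 0.16 ± 0.15 (adjusted p 0.599), and the difference between the 2 effects, 0.44 ± 0.21, was not called (adjusted p 0.202). KO FB1 livers exceeded WT FB1 livers by 0.35 ± 0.15 (adjusted p 0.0811).

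The 4 tested Ugcg probes did not give the same answer. Those at chr4:59235333-59235392 and chr4:59231369-59231428 rose with FB1 in KO livers by 0.45 (adjusted p over all tested probes 0.0168) and 0.28 (adjusted p 0.0454). The probe furthest upstream, at chr4:59226071-59226130, differed by -0.01 ± 0.16 (adjusted p 0.967). With the mean of all tested probes, the rise of Ugcg was 0.33 ± 0.12 (adjusted p 0.0340). The same mean put KO FB1 livers above WT FB1 livers by 0.12 ± 0.12 (adjusted p 0.462), and the difference of the FB1 effects was 0.17 ± 0.17 (adjusted p 0.597).

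St3gal5 encodes GM3 synthase, which adds sialic acid to lactosylceramide and opens the ganglioside pathway. Its probe (chr6:72104404-72104463) gave 4.08, 4.39 and 4.81 in KO FB1 livers, against 4.97, 5.43 and 5.79 in KO control livers. All 6 KO FB1 arrays were below all 6 KO control arrays. In KO livers given FB1, St3gal5 fell by 0.999 ± 0.315 on the log2 scale, to 0.50 of the KO control level (adjusted p 0.0142). The WT livers were much more scattered, at 3.88, 5.31 and 5.93 with FB1 against 4.203, 5.60 and 6.33 without. Their SDs were 0.74 with FB1 and 0.80 without, against 0.26 in KO FB1 and 0.27 in KO control livers. The fit uses 1 spread per gene for all 4 groups, so its SE of 0.315 is the same in both genotypes. The intervals and adjusted p therefore do not reflect this difference in scatter. The WT difference was -0.43 ± 0.32 (adjusted p 0.494), with a 95% interval of -1.08 to 0.22 that includes the KO estimate, and the difference between the FB1 effects was -0.57 ± 0.45 (adjusted p 0.469). Without the lowest WT FB1 array, replicate 1, KO FB1 livers were lower than WT FB1 livers by -0.86 with an adjusted p of 0.0284, against -0.63 and 0.134 with all arrays.

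Sgms1 and Sgms2 encode sphingomyelin synthases, which move the phosphocholine head group of phosphatidylcholine onto ceramide. Sgms1 works in the Golgi and Sgms2 mainly at the plasma membrane. Sgms2 (chr3:131022508-131022567) gave -0.62, -0.28 and 0.19 in KO FB1 livers, against 0.14, 0.36 and 0.52 in KO control livers. In WT livers it gave 0.35, 0.44 and 0.70 with FB1, against 0.16, 0.51 and 0.79 without. All 6 KO FB1 arrays were below all 6 WT FB1 arrays, and 5 of the 6 were below the lowest KO control array.

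FB1 lowered Sgms2 by 0.60 ± 0.13 on the log2 scale in KO livers, to 0.66 of the KO control level (adjusted p 6.95e-04). In WT livers the difference was 0.00 ± 0.13, with a 95% interval of -0.26 to 0.27. The 2 effects differed by -0.60 ± 0.18 (adjusted p 0.0367), the only such difference among the 8 genes to pass the test with the processing used here. KO FB1 livers were lower than WT FB1 livers by 0.71 ± 0.13, or 1.64-fold (adjusted p 1.38e-04), and KO control livers differed from WT control livers by -0.11 ± 0.13 (adjusted p 0.641). The call on the difference of effects was lost in 4 of 10 other ways of processing or fitting all 24 arrays: with normexp background correction (adjusted p 0.0536), the authors' values (0.0695), no filter on dim probes (0.0743) and a block for replicate number (0.0564). It was also lost on each of the 3 slides alone, and on leaving out any of 12 of the 24 arrays, with adjusted p between 0.0522 and 0.0700 and a difference of -0.53 to -0.61. These were WT FB1 replicates 3 and 4, WT control replicates 2, 3 and 6, KO FB1 replicates 1, 4 and 6, and KO control replicates 2, 3, 4 and 6. The falls of Sgms2 in KO livers and against WT FB1 livers passed the test on leaving out any array.

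Sgms1 had no call at its brightest probe (chr19:32295077-32295136). It gave -0.10, 0.18 and 0.67 in KO FB1 livers, against -0.43, -0.03 and 0.19 in KO control livers, and the groups overlapped widely. The FB1 difference was 0.26 ± 0.15 in KO livers (adjusted p 0.167) and 0.22 ± 0.15 in WT livers (adjusted p 0.450). Of the other 3 tested Sgms1 probes, the one at chr19:32232746-32232805 rose by 0.43 ± 0.11 with FB1 in KO livers (adjusted p over probes 0.00379) and by 0.33 ± 0.11 in KO FB1 over WT FB1 livers (adjusted p 0.0263). The remaining pair was not called in any comparison, and a 5th probe was too dim to test. Of the pair, the probe at chr19:32198766-32198825 is the only Sgms1 probe assigned to a RefSeq transcript. With FB1 in KO livers it differed by 0.07 ± 0.105 (adjusted p over probes 0.636). The other of the pair differed by 0.31 ± 0.18 (adjusted p 0.188). The brightest and the called probe are assigned to different Ensembl transcripts.

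Cerk encodes ceramide kinase, which makes ceramide 1-phosphate. Its brighter probe (chr15:85969589-85969648) gave 0.73, 1.15 and 1.39 in KO FB1 livers, against 0.08, 0.29 and 0.73 in KO control livers. The KO groups met at 0.73 but did not overlap. In WT livers it gave 0.72, 0.84 and 0.98 with FB1, against 0.23, 0.56 and 0.93 without, and these groups overlapped. FB1 raised Cerk by 0.73 ± 0.13 in KO livers, 1.65-fold (adjusted p 1.18e-04), the largest rise among the 8 genes. The WT difference of 0.27 ± 0.13 had an unadjusted p of 0.0503, the smallest of the 8 genes in that comparison, and an adjusted p of 0.278. The dimmer Cerk probe (chr15:85969763-85969822) rose by 0.42 ± 0.16 in KO livers (adjusted p over probes 0.0374). The 2 effects of FB1 differed by 0.46 ± 0.18, which was not called (adjusted p 0.112), and was called at 0.53 without KO FB1 replicate 3 (adjusted p 0.0472).

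Among the lysosomal genes, Hexa encodes the α subunit of β-hexosaminidase A, which removes the terminal N-acetylgalactosamine of ganglioside GM2. Its probe (chr9:59411712-59411771) gave 2.95, 3.11 and 3.29 in KO FB1 livers, against 2.45, 2.64 and 2.90 in KO control livers. In WT livers it gave 2.43, 2.59 and 2.73 with FB1, against 2.32, 2.49 and 2.79 without. The 6 KO FB1 arrays were the 6 highest of the 24, and the other 3 groups overlapped. FB1 raised Hexa by 0.45 ± 0.09 in KO livers, 1.37-fold (adjusted p 3.46e-04). KO FB1 livers exceeded WT FB1 livers by 0.53 ± 0.09, 1.45-fold (adjusted p 6.81e-05). In WT livers the FB1 difference was 0.07 ± 0.09, with a 95% interval of -0.12 to 0.25. The difference of the 2 effects, 0.39 ± 0.13, narrowly missed the threshold with an adjusted p of 0.0562. It passed on leaving out WT control replicate 3 or 6, KO FB1 replicate 4 or KO control replicate 4, with adjusted p of 0.0405, 0.0425, 0.0433 and 0.0330 in that order, and with quantile normalisation (adjusted p 0.0307), the authors' values (0.0434) or an intensity trend (0.0452).

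Psap encodes prosaposin, which is cut into the saposins that present glycolipids to several of these hydrolases. Its probe (chr10:59764825-59764884) gave 4.68, 4.94 and 5.16 in KO FB1 livers, against 4.46, 4.69 and 4.83 in KO control livers. In WT livers it gave 4.46, 4.67 and 4.84 with FB1, against 4.37, 4.48 and 4.70 without. All of these ranges overlapped. Psap rose by 0.28 ± 0.09 with FB1 in KO livers, 1.21-fold (adjusted p 0.0158), and by 0.42 after quantile normalisation (adjusted p 0.00174). KO FB1 livers exceeded WT FB1 livers by 0.27 ± 0.09 (adjusted p 0.0222), and that call was lost without WT FB1 replicate 2 (0.23, adjusted p 0.0590), WT FB1 replicate 4 (0.24, adjusted p 0.0555) or KO FB1 replicate 6 (0.22, adjusted p 0.0651). In WT livers FB1 gave 0.15 ± 0.09 (adjusted p 0.396).

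Glb1 encodes the lysosomal β-galactosidase that degrades ganglioside GM1. Its brightest probe (chr9:114383406-114383466) gave 0.45, 0.72 and 1.44 in KO FB1 livers, against 1.23, 1.60 and 1.71 in WT FB1 livers. It gave 0.32, 0.78 and 1.35 in KO control livers, against 1.35, 1.43 and 1.72 in WT control livers. Of the 6 KO FB1 arrays, 5 were below every WT FB1 array, and the highest KO control array overlapped the lowest WT control array by less than 0.01. Glb1 was lower in KO livers by 0.71 ± 0.16 with FB1 (adjusted p 0.00122) and by 0.67 ± 0.16 without FB1 (adjusted p 0.00438), or 1.63-fold and 1.59-fold. FB1 gave 0.03 ± 0.16 in KO livers and 0.07 ± 0.16 in WT livers, with 95% intervals of -0.30 to 0.35 and -0.25 to 0.39.

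Glb1 was measured at 5 tested probes spread along the gene, and all 5 were lower in KO livers in both comparisons. With FB1, 4 of the 5 passed the test over probes, and without FB1, 3 of the 5 did. The called values were -0.71, -0.70, -0.62 and -0.43 with FB1, and -0.67, -0.57 and -0.54 without. Of these, the probes at chr9:114383406-114383466 and chr9:114383440-114383499 overlap on the genome and are not independent. The probe not called in either comparison, at chr9:114348787-114348846, gave -0.35 ± 0.29 with FB1 and -0.39 ± 0.29 without. The value without FB1 includes WT control replicate 3, at -2.11. The rest of that group lay at -4.56 to -4.18, within the KO control range of -4.72 to -3.85.

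**Figure D2:**
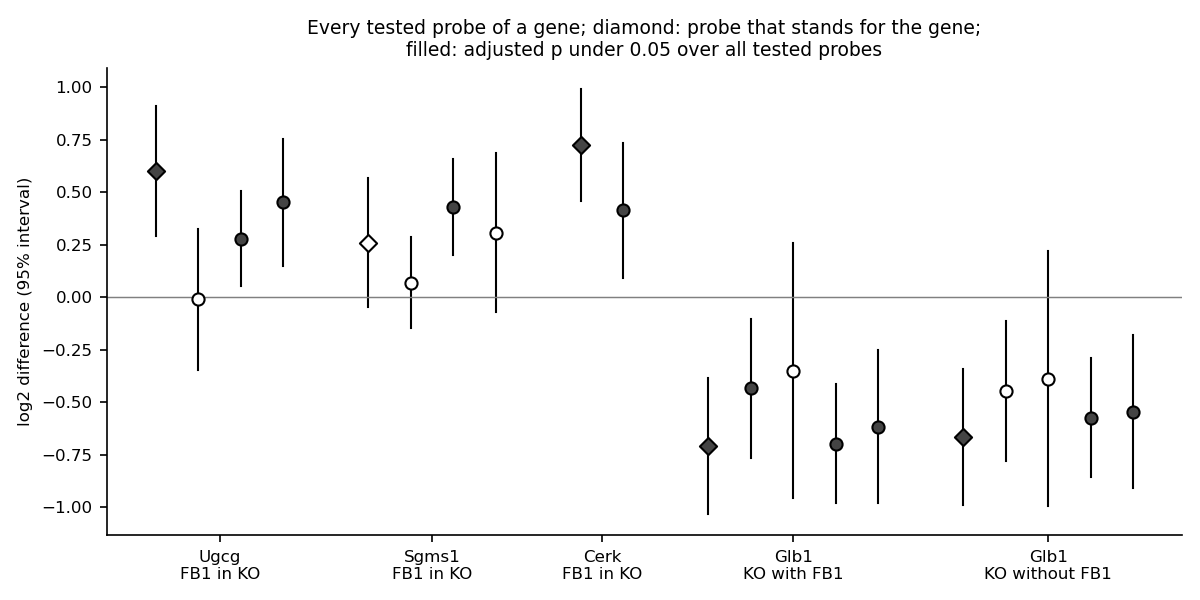
Log2 differences (vertical axis) at every tested probe of Ugcg, Sgms1 and Cerk for FB1 in KO, and of Glb1 for KO against WT with and without FB1; points are estimates, lines are 95% intervals, diamonds mark the brightest probe and filled symbols an adjusted p under 0.05 over all tested probes. All 5 Glb1 probes lie below 0 in both comparisons, whereas 1 of the 4 Ugcg probes lies at -0.01 beside 3 that rose.

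Galc encodes galactosylceramidase, the enzyme lost in Krabbe disease. Its probe (chr12:99441131-99441190) was well above background on 4 of 6 KO FB1 arrays, 4 of 6 KO control arrays, 0 of 6 WT FB1 arrays and 2 of 6 WT control arrays. Its values were -5.87, -5.36 and -5.11 in KO FB1 livers, against -6.52, -5.28 and -4.99 in KO control livers. They were -7.25, -6.38 and -5.61 in WT FB1 livers, against -7.62, -6.08 and -5.52 in WT control livers. These lie near the detection limit in all 4 groups, so no fold change or test is given.

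**Figure D3:**
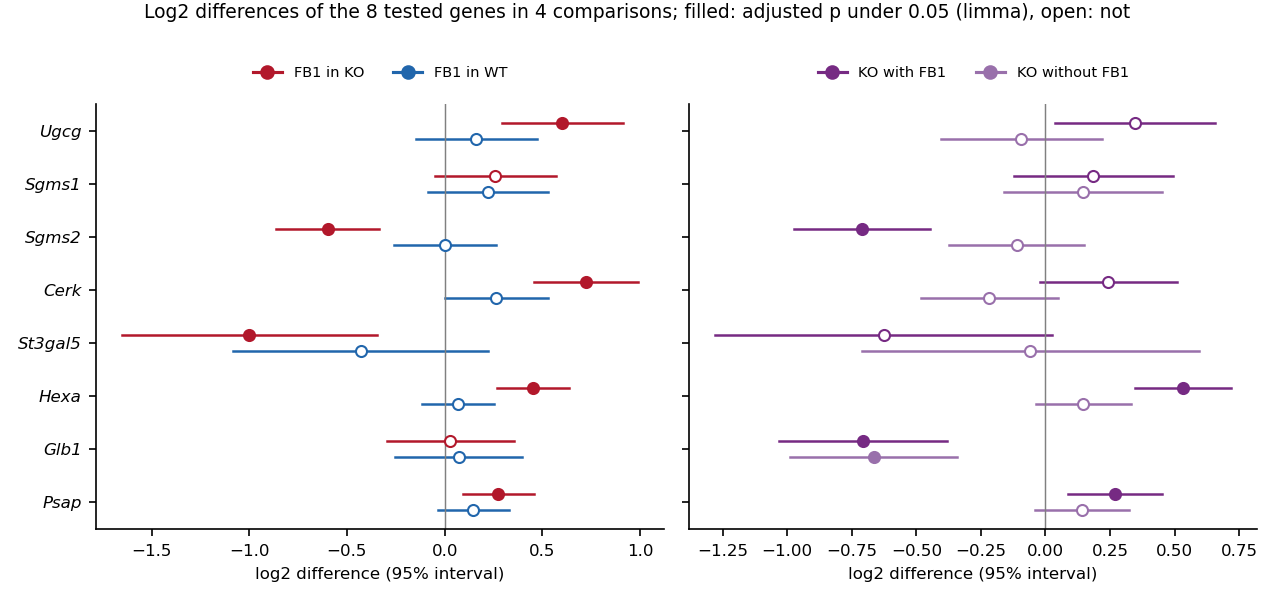
Log2 differences of the 8 tested genes (horizontal axes), for FB1 in KO and in WT at left and for KO against WT with and without FB1 at right; points are estimates from the fit of 24 arrays, lines are 95% intervals and filled points have an adjusted p under 0.05. Filled points at left are those of FB1 in KO, 4 above 0 and 2 below, and Glb1 is the gene with a filled point at right without FB1.

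Each of the 3 slides held 2 arrays of every group, so the effects could be read within slides. With slide as a block the adjusted p for FB1 in KO was 0.00224 for Ugcg, 8.87e-05 for Cerk, 3.92e-04 for Hexa, 0.0186 for Psap, 6.20e-04 for Sgms2 and 0.0177 for St3gal5. Within slides 1, 2 and 3, FB1 in KO gave 1.003, 0.30 and 0.51 for Ugcg and 0.79, 0.50 and 0.88 for Cerk. It gave 0.63, 0.37 and 0.36 for Hexa and 0.40, 0.22 and 0.21 for Psap. It gave -0.25, -0.68 and -0.87 for Sgms2 and -1.18, -0.47 and -1.34 for St3gal5. Every called effect of FB1 in KO thus had the same direction on all 3 slides, with the smallest values of Ugcg, Cerk and St3gal5 on slide 2 and of Sgms2 on slide 1.

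The comparison of genotypes was read in the same way. Glb1 was lower in KO on slides 1, 2 and 3 by 0.49, 0.96 and 0.66 with FB1, and by 0.47, 0.80 and 0.72 without. With FB1, Hexa differed between KO and WT by 0.56, 0.58 and 0.47, Psap by 0.31, 0.26 and 0.24, and Sgms2 by -0.43, -0.78 and -0.92 on the 3 slides. The difference of FB1 effects on Sgms2 was -0.32, -0.75 and -0.73, with an adjusted p of 0.0325 with slide as a block. With slide as a block the calls on Glb1 held, at an adjusted p of 6.29e-04 with FB1 and 0.00236 without.

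Markers of other liver cells moved in the same comparisons, and in whole liver a change in the number of cells of a type and a change of RNA per cell cannot be told apart. With FB1 in KO livers, 9 of 11 recruited macrophage markers rose (81.8%, beside 41.2% of all genes called and 16.5% higher). They were led by Trem2 (2.87, adjusted p 1.89e-07) and Lyz2 (1.28, adjusted p 5.23e-07). The summed level of the 11, in units of each array's 75th percentile, was 108 to 131 in KO FB1 livers, against 41.3 to 62.6 in KO control livers. A summed level adds the unlogged signals of a list, so its brightest probes weigh most, and it is not a count of cells. With FB1 in WT livers, where 0 of the 8 sphingolipid genes were called, 6 of the 11 rose (54.5%, beside 2.89% of all genes), although the summed levels overlapped, at 64.3 to 96.6 in WT FB1 and 59.5 to 107 in WT control livers. Macrophages are rich in lysosomes, and the part of these shifts in the rises of Hexa, Psap, Cerk and Ugcg was not tested.

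All 8 dividing cell markers rose with FB1 in both genotypes. Of the 8, 6 were well above background on all 24 arrays, so the others could have entered the test only through groups where they are high. Of all genes, 41.2% were called in KO livers, 16.5% higher and 24.6% lower, and 2.89% in WT livers. The same shares stand beside the counts of the stellate, endothelial, hepatocyte and neutrophil markers. For the dividing cell markers the summed levels did not overlap between FB1 and control livers. Their summed level was 9.29 to 30.9 in KO FB1 against 2.46 to 4.31 in KO control livers, and 6.59 to 20.4 in WT FB1 against 1.14 to 5.67 in WT control livers. Stellate cell markers rose in 5 of 8 cases in KO livers (62.5%) and in 2 of 8 in WT livers (25%), with a summed level of 25.2 to 39.7 in KO FB1 against 15.5 to 19.8 in KO control livers. Sinusoidal endothelium markers fell in 4 of 6 cases in KO livers (66.7%), with a summed level of 18.8 to 27.7 in KO FB1 against 31.8 to 50.1 in KO control livers, and 0 of 6 were called in WT livers by limma, with 3 at an unadjusted p under 0.05. Of 9 hepatocyte markers 3 fell and 0 rose in KO livers. That is 33.3%, beside 24.6% of all genes lower and 41.2% called in either direction. Among the 3 was Cps1 (-0.83, adjusted p 9.00e-05). Of 6 neutrophil markers, 1 rose with FB1 in each genotype by limma (16.7%). In WT livers all 6 were at an unadjusted p under 0.05, and in KO livers 1 was. The median difference of these 6 was 1.635 in WT and 0.875 in KO livers. The part of these shifts in the falls of Sgms2 and St3gal5 was not tested either.

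Between genotypes, markers of resident macrophages, the Kupffer cells, shifted. All 9 of them were lower in KO control than in WT control livers, beside 15.2% of all genes called (8.02% lower). Their summed level was 11.2 to 19 against 53.7 to 163. With FB1, 8 of 9 were lower in KO than in WT livers, beside 32.8% of all genes called (18.3% lower). Their summed level was then 12.9 to 21.4 against 104 to 146. The smallest p was that of Cd5l, also known as an LXR target gene, which fell by 9.46 with FB1 and fell by 9.16 without FB1 on the log2 scale. Cd5l is among the 9 genes summed. Of the 11 recruited macrophage markers, 8 were higher and 2 lower in KO livers with FB1, and 7 were higher and 3 lower without FB1. That is 90.9% in each case, beside 32.8% of all genes with FB1 and 15.2% without. Their summed level was 108 to 131 in KO FB1 against 64.3 to 96.6 in WT FB1 livers, but without FB1 its median was lower in KO, at 54 in KO control against 79.9 in WT control livers. Among those higher in KO, Gpnmb was well above background on 6 of 6 arrays in both KO groups, 1 of 6 WT FB1 arrays and 0 of 6 WT control arrays. Mmp12 was well above background on all arrays but 5 of the WT control group.

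Further cell types differed between KO FB1 and WT FB1 livers, beside 32.8% of all genes (14.5% higher, 18.3% lower). All 6 neutrophil markers were lower in KO, with a median difference of -1.99 and a summed level of 4.13 to 7.73 in KO FB1 against 7.89 to 39.2 in WT FB1 livers. Of these 6 markers, 4 were well above background on all 24 arrays. Of the sinusoidal endothelium markers 4 of 6 were lower, and of the stellate cell markers 4 of 8 were higher and 2 lower. Without FB1, 2 of the 6 neutrophil markers were lower in KO livers, 1 sinusoidal endothelium marker was higher, and 1 stellate cell marker was higher and 1 lower, beside 15.2% of all genes. These markers shift alongside the lower Glb1 of KO livers and, with FB1, alongside the genotype differences of Hexa, Psap and Sgms2, and their part in these was not tested.

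The other genes of complex sphingolipid synthesis and transport, 15 tested of 17 listed, also moved with FB1 in KO livers. Of the 15, 5 rose and 3 fell, or 53.3%, against the 41.2% of all genes, with a list median of 0.04. The smallest p belonged to St3gal2, a sialyltransferase acting on gangliosides (0.66 ± 0.09, adjusted p 9.73e-06). B4galt5, a lactosylceramide synthase, rose by 1.21 ± 0.20 (adjusted p 5.09e-05), and Gal3st1, which sulfates galactosylceramide to sulfatide, rose by 1.39 ± 0.25 (adjusted p 1.52e-04). B4galt5 stands directly between Ugcg, which rose, and St3gal5, which fell, in the synthesis of GM3. St3gal2 also differed in its FB1 effect between genotypes, by 0.53 ± 0.13 (adjusted p 0.0135), as did the glycolipid transfer protein gene Gltp, by 0.68 ± 0.21 (adjusted p 0.0414). These 2 were the called genes of the list in that comparison, 13.3% against 9.30%.

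Between genotypes this list gave 1 higher and 1 lower call without FB1, 13.3% against 15.2% of all genes. B4galt6, the second lactosylceramide synthase gene, was lower by 0.77 ± 0.15 (adjusted p 5.72e-04), and Samd8, which makes ceramide phosphoethanolamine, was higher by 0.52 ± 0.14 (adjusted p 0.0106). With FB1, 3 genes were higher and 3 lower in KO livers, 40% against 32.8%. The smallest p values were those of St3gal2 (0.62), B4galt5 (1.18) and Gltp (0.60). In WT livers FB1 gave 0 calls by limma in this list, with 2 genes at an unadjusted p under 0.05, and the smallest p was that of Gal3st1 (0.65 ± 0.25, adjusted p 0.171).

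**Figure D4:**
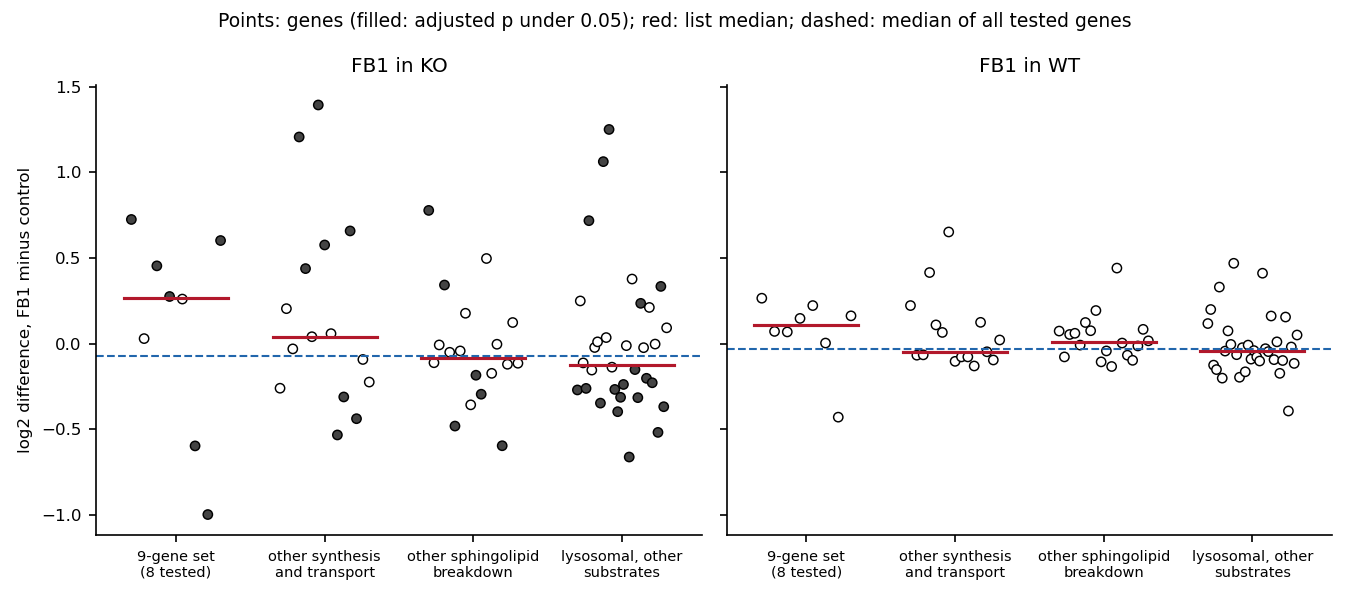
Log2 difference FB1 minus control (vertical axis) of each gene in the 9-gene set and in the 3 lists of related genes, in KO livers at left and WT livers at right; filled points have an adjusted p under 0.05, red lines are list medians and dashed lines the median of all tested genes. At left filled points lie on both sides of 0 in every set, and at right no point is filled.

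Of the other genes of sphingolipid breakdown, 18 tested of 19 listed, 2 rose and 4 fell with FB1 in KO livers, 33.3% against 41.2% of all genes, with a list median of -0.08. Arsa, which encodes the arylsulfatase that removes sulfate from sulfatide, rose by 0.78 ± 0.12 (adjusted p 2.39e-05). Scarb2, which encodes the receptor that carries glucocerebrosidase to the lysosome, fell by 0.60 ± 0.10 (adjusted p 4.09e-05). Ctsd, whose product cathepsin D cuts prosaposin, rose by 0.34 ± 0.07 (adjusted p 3.27e-04). The FB1 effect differed between genotypes for 3 of the 18 genes, 16.7% against 9.30%. These were Arsa (0.71, adjusted p 0.0112), Scarb2 (-0.50, adjusted p 0.0227) and Gba2, a glucosylceramidase outside the lysosome (-0.61, adjusted p 0.0238).

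Genotype moved the same list in both directions. Without FB1, 3 of 18 were higher and 2 lower in KO livers, 27.8% against 15.2%. Asah1, the acid ceramidase gene, was higher by 0.56 ± 0.09 (adjusted p 8.04e-05) and Arsa by 0.53 ± 0.12 (adjusted p 0.00273), while Scarb2 differed by -0.51 ± 0.10 (adjusted p 5.53e-04). With FB1, 2 were higher and 3 lower, 27.8% against 32.8%. In that comparison Arsa differed by 1.24 ± 0.12 (adjusted p 2.96e-08), Scarb2 by -1.01 ± 0.10 (adjusted p 2.72e-08) and Asah1 by 0.53 ± 0.09 (adjusted p 8.70e-05). FB1 in WT livers gave 0 calls by limma and 0 genes at an unadjusted p under 0.05 in this list, and Neu1, a lysosomal sialidase gene, had the smallest p (-0.13 ± 0.07, adjusted p 0.292).

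Of the lysosomal genes for other substrates, 32 of 32 tested, 14 fell and 5 rose with FB1 in KO livers, 59.4% against 41.2%, with a list median of -0.13. The smallest p values were those of the cathepsin genes Ctsk (1.06 ± 0.14, adjusted p 2.79e-06) and Ctss (1.25 ± 0.17, adjusted p 4.62e-06), and of Ids, an enzyme of heparan and dermatan sulfate breakdown (-0.66 ± 0.10, adjusted p 2.01e-05). Tfe3 and Tfeb encode transcription factors of many lysosomal genes and are named here after their values were seen. The 32 genes are thus not all genes of lysosomal proteins, since Tfe3 is among them. Tfe3 rose by 0.33 ± 0.06 (adjusted p 9.29e-05) and Tfeb fell by 0.37 ± 0.13 (adjusted p 0.0253). The FB1 effect differed between genotypes for 4 of the 32, 12.5% against 9.30%, with the smallest p for Ctss (1.45), Tfe3 (0.35) and Ids (-0.56).

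Without FB1, 5 of these 32 genes were higher and 3 lower in KO livers, 25% against 15.2%. They were led by Ppt1, a lysosomal thioesterase gene (0.94 ± 0.07, adjusted p 1.52e-10), Ctsk (0.999 ± 0.135, adjusted p 7.69e-06) and Ctss (-0.94 ± 0.17, adjusted p 2.46e-04). With FB1, 7 were higher and 9 lower, 50% against 32.8%, led by Ppt1 (0.78), Ctsk (1.59) and Tfe3 (0.35). FB1 in WT livers gave 0 calls by limma in this list, with 7 genes at an unadjusted p under 0.05, and Ctsk had the smallest p (0.47 ± 0.14, adjusted p 0.0613).

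The start regions of the genes with opposite behaviour are shown for comparison of 2 motifs: the E-box CACGTG, which lies within the site of the TFE3 and TFEB family, and the LXR element of the DR4 kind, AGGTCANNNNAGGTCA. Promoters are from RefSeq (GRCm38.p6), from 250 bases before the start to 50 after it, on the strand of the gene, and capitals mark TCACGTG, the longer E-box, read on both strands. Hexa and Psap rose with FB1 in KO livers, Sgms2 fell, and Glb1 was lower in KO livers with and without FB1.
Hexa, chr9:59539290-59539589, + strand: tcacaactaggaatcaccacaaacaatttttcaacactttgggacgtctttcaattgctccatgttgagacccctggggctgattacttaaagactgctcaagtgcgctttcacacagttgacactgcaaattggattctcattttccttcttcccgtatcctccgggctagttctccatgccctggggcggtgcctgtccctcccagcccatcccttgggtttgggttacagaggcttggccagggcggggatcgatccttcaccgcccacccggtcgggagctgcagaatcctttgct
Psap, chr10:60277378-60277677, + strand: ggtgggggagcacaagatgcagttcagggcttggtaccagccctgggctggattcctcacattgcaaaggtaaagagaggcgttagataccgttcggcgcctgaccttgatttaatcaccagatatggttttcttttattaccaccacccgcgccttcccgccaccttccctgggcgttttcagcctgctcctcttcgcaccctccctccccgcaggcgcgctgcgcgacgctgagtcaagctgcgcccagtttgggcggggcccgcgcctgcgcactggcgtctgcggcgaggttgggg
Glb1, chr9:114400828-114401127, + strand: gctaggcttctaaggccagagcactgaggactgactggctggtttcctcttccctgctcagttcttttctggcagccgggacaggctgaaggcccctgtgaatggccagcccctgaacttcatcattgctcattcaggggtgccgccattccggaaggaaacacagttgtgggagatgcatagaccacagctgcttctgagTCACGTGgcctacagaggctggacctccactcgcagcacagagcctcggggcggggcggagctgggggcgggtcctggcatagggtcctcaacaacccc
Sgms2, chr3:131488993-131489292, - strand: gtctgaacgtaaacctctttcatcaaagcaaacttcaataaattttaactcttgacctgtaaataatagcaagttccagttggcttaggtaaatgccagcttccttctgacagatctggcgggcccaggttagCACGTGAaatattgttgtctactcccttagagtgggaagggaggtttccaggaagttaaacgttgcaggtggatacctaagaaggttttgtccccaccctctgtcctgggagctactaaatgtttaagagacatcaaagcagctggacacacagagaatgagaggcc

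All 9 genes had an entry, 18 promoters in all. The E-box was in 7.15% of the 32851 promoters of the table, TCACGTG, which contains it, in 3.77%, and DR4 in 0.0152%. Counted by gene, 2 of the 9 genes had an E-box at any of their starts, beside 8.09% of the 27025 genes of the table, and the same 2 had TCACGTG, beside 4.29%. Glb1 had TCACGTG at position -49 from the start, and 1 of the 6 starts of Sgms2, the start shown, had its reverse complement at -117. Hexa and both starts of Psap had none in this window. St3gal5, which fell with FB1 in KO livers, and Ugcg and Cerk, which rose, had none either. Of the 9 genes, 0 had DR4. A match of letters is a description and was not tested for binding.

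The genes whose pattern over the 24 arrays lay nearest to the 3 genes with the smallest F-test p over the 4 groups were found by the root-mean-square difference of log2 values after removing each gene's mean. Hexa, which had an SD of 0.28 over the 24 arrays, was nearest to Scarf2 (0.13), Gas8 (0.14) and Agps (0.14). Sgms2, with an SD of 0.37, was nearest to Ngef (0.16), Snx21 (0.17) and Stat5b (0.18). Glb1, with an SD of 0.44, was nearest to Zfp30 (0.24), Fbxo3 (0.25) and Fam20b (0.25), so its closest genes were less close than those of Hexa and Sgms2.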

How the data were processed

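Each deposited scanner file gives, per the file headers, the intensity of every spot as written by Agilent Feature Extraction 10.10.1.1, after background subtraction and spatial detrending by that program. Per the labels' protocols, Cy3-labelled copies of total liver RNA were hybridised, 1 mouse per array. The submitters' processing notes name limma, and the authors deposited a table of log2 values for 33417 probes with column medians of 7.86. Each of its 24 columns correlated positively and best with its own array (lowest r 0.89). Its background step and probe filter are unknown, and it served as an alternative.

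From the scanner files, log2 processed signal was scaled to each array's 75th percentile. Spots marked as outliers (64 to 121 per array) were set to missing. Testing required 4 or more values per group and a signal well above background on all unmarked arrays of some group, which kept 33417 of 56605 probes. The tested probe with the highest mean stood for its gene. For 58.3% of probes the name came from the RefSeq accession in a GRCm38.p6 table, and otherwise from the file. Probe coordinates are mm9 as in the files, and the annotation of probes as exon or UTR was not analysed here. The sequence of 1 probe is not reported here.

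All 24 arrays entered 1 limma 3.58.1 fit (R 4.3.3) of 4 group means without covariates, with lmFit, eBayes and Benjamini-Hochberg adjustment over 22088 genes, called at adjusted p under 0.05. Values per probe were adjusted over all 33417 probes. SEs and 95% intervals are those of the moderated fit, n is 6 arrays a group, and the number of arrays limits precision. The fit was tested on simulated data. Figures used Python 3.11.15 and matplotlib 3.10.9, and promoter tables pandas 2.3.3.

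The 9 genes and the 3 pathway and 9 marker lists were chosen with earlier results of these data known. Named genes were the 9 genes with every probe, Nr1h3 and Nr1h2, the 3 called genes with the smallest p of each pathway list and comparison (or the 1 with the smallest p where none was called), and at most 2 called markers per list. Exceptions are stated where they occur. Of 68 pathway genes 65 were tested (not Ugt8a, St6galnac5 and Neu4), and of 73 markers 71 (not Cd8a and Cd79a). Alternatives were quantile normalisation, normexp with an offset of 50, the authors' values, no filter or a stricter filter on dim probes, keeping outlier spots, averaging the probes of a gene, a block for slide or for replicate number, an intensity trend, the groups of a comparison alone, each slide alone, and each array left out.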

Additional observations from a re-analysis of the deposited data

Results flagged for a closer look

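The effect of FB1 on Sgms2 differed between genotypes, with a log2 difference of effects of -0.60 (adjusted p 0.0367): it fell by 0.60 in KO livers and differed by 0.00 in WT livers. In 6 of 6 KO FB1 livers Sgms2 was below the lowest WT FB1 liver. The call was lost in 4 of 10 other ways of processing or fitting all arrays, on each of the 3 slides alone and on leaving out any of 12 of the 24 arrays, with no change of sign.

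A single array stood apart from the other 5 of its group at some probes of Sgms1 and Glb1. Of 76 groups of 6 values examined over the 19 tested probes, 5 held such an array, and chance gives about 1 in 20 groups. The Sgms1 probe at mm9 chr19:32232746-32232805 gave -0.57 in WT FB1 replicate 2, with the next array of the group at -0.91, and -0.81 in WT control replicate 1, with the next at -1.09. The brightest Glb1 probe gave 1.72 in WT control replicate 5, with the next at 1.49. The Glb1 probe at chr9:114373365-114373424 gave -1.97 in KO control replicate 4, with the next at -1.19. The Glb1 probe at chr9:114348787-114348846, the only one of 5 not called between genotypes in either comparison, gave -2.11 in WT control replicate 3, with the next at -4.18.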

How the results depend on the processing

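No result for the 8 genes reversed under the alternatives run, that is, no difference changed sign where either value was called. Apart from the fits to 1 slide and those without 1 array, 420 of 427 values kept their call, 4 lost it and 3 gained it. The 4 losses were all of the difference of FB1 effects on Sgms2, which was -0.52 (adjusted p 0.0536) with normexp background correction, -0.52 (0.0695) with the authors' values, and -0.60 both without a filter on dim probes (0.0743) and with the replicate block (0.0564). The 3 gains were all of the difference of effects on Hexa, which was 0.45 (0.0307) after quantile normalisation, 0.44 (0.0434) with the authors' values and 0.39 (0.0452) with an intensity trend. The number of the 8 genes called for that difference was therefore 2 with quantile normalisation, 2 with the intensity trend, and 0 with normexp, with no filter and with the replicate block. The causes were not tested. Without a filter 1258 genes in all were called for the difference, of 37325 tested, and with the groups of the comparison alone 381 for FB1 in WT.

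Each slide alone has 2 arrays a group. The calls among all genes were 7 on slide 1, 33 on slide 2 and 0 on slide 3 for FB1 in WT, and 1971, 305 and 4905 for FB1 in KO. They were 1615, 705 and 4162 for KO with FB1, 724, 424 and 885 for KO without FB1, and 6, 3 and 1083 for the difference of effects. Of the 8 genes, 3 were called on slide 1, 0 on slide 2 and 4 on slide 3 for FB1 in KO. For KO with FB1 these were 0, 1 and 3, and for KO without FB1 0 on each slide. For the difference they were 0, 0 and 1, the call being St3gal5 on slide 3 (-1.79, adjusted p 0.0454). St3gal5 differed between KO and WT livers with FB1 by -0.50, 0.06 and -1.43 on the 3 slides. Fewer arrays enter these fits.

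On leaving out each array, 15 of 960 values lost a call and 8 gained one. FB1 in WT gave 386 genes in all without WT FB1 replicate 1 and 839 without WT FB1 replicate 4, and the difference of effects 0 to 2 of the 8 genes. For the other comparisons the 8 genes gave 6 calls for FB1 in KO, 1 for KO without FB1 and 3 to 5 for KO with FB1, where Ugcg was gained without WT FB1 replicate 3 (0.43) or KO FB1 replicate 3 (0.45). For all 22088 genes the difference gave 1490 to 3038 calls. In the same fits FB1 in KO gave 7976 to 9794, KO without FB1 2828 to 3538 and KO with FB1 6191 to 7854. Scaling moved the median of all genes by less than 0.1. With the authors' values 59% of the calls for the difference were higher (1127 against 782), and 47.9% in the report (985 against 1070). For KO with FB1 higher calls were 44.3% of the calls in the report, 50.6% with quantile normalisation and 52.7% with the authors' values, and for FB1 in KO 40.2%, 45.2% and 49.1%.

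Same-numbered samples in different groups correlated at -0.20 to 0.24 after removing group means, and 3 of 24 pairs exceeded 0.1, so the numbers were not taken to pair the mice. The replicate block changed no other call of the 8 genes.

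Psap is not among the probes of the authors' table. The labels give no litter, cage or RNA quality, 1 probe stands for each gene, and dim probes such as that of Galc were not tested.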

Other observations

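Glb1 lies on chromosome 9, and the 20 tested genes nearest to it in the order of GRCm38.p6, 10 on each side, were examined after the fall of Glb1 was seen. In KO control against WT control livers 3 of the 20 were called, all lower, which is 15% beside 15.2% of all genes. They were Clasp2 (-0.58, adjusted p 0.0254), Crtap (-0.39, adjusted p 0.0208) and Cmtm8 (-0.53, adjusted p 4.41e-04). In KO FB1 against WT FB1 livers 9 of the 20 were called, 5 of them lower, which is 45% beside 32.8%. Clasp2 (-0.65) and Cmtm8 (-1.01) were lower again, and Crtap was not called (0.10).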
